A study of Mus musculus with 20 samples.

Results

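The genes described here encode the glutamate receptors of the mouse brain and the proteins that travel with them. They were chosen by name as 34 listed genes of the 49671 genes in the count tables, and all 34 were found by symbol. The list holds 4 AMPA receptor subunits, 7 NMDA receptor subunits, 5 kainate receptor subunits, 1 delta receptor, 6 metabotropic receptors and 11 auxiliary subunits. A filter on low counts kept 33 of the 34 for testing; Grin3b, with 156 counts over all 20 libraries, did not pass.

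Bulk RNA sequencing was carried out on single frozen hippocampi of 20 adult male wild-type mice aged 10 to 12 weeks, 5 per group. The control group received isotype-matched antibody. The ICI group received immune checkpoint inhibitors, namely an antibody against CTLA-4 (1 mg per dose, 3 doses weekly) and one against PD-1 (200 µg per dose, 2 doses weekly). The melanoma group bore tumours of D4M-3A.UV2, a syngeneic mouse melanoma line put into the skin on both sides as 500000 cells per injection, and received isotype-matched antibody after 1 week of engraftment. The melanoma plus ICI group carried the same tumours and received both checkpoint antibodies, for a stated 3 weeks. Tissue was taken 72 hours after the last one.

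Fast excitatory transmission in the brain runs through ionotropic glutamate receptors. AMPA receptors carry most of the rapid current, NMDA receptors admit calcium when glutamate meets a depolarised membrane, and kainate receptors modulate both sides of the synapse. Metabotropic receptors signal through G proteins, while TARPs, cornichons and Shisa proteins attach to AMPA receptors and set their trafficking and gating. The fields of the hippocampus, CA1, CA3 and the dentate gyrus, are known to carry different mixtures of these proteins.

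Promoter sequence is shown for 3 genes because their levels followed the tissue make-up of the libraries in different directions, as described further on. Gria2 and Gria4 are AMPA subunits, and Grin1 is the subunit that every NMDA receptor needs. The sequences are the 250 bases before the start site in RefSeq, build GRCm38.p6, all on the minus strand and written 5′ to 3′ with CpG dinucleotides in capitals. Their positions are chr3:80802836-80803085 for Gria2, chr9:4796235-4796484 for Gria4 and chr2:25319188-25319437 for Grin1, and each ends where the deposited gene begins.
Gria2: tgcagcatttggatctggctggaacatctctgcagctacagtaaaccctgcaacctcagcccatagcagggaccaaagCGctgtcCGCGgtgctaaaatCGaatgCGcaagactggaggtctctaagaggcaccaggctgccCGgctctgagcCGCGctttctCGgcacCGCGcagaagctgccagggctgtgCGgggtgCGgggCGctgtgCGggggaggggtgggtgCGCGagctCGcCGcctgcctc
Gria4: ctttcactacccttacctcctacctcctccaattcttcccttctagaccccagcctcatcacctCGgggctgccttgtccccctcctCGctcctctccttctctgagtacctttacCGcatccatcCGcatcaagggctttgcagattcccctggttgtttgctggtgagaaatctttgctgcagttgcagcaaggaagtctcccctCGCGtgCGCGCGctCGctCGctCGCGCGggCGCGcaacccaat
Grin1: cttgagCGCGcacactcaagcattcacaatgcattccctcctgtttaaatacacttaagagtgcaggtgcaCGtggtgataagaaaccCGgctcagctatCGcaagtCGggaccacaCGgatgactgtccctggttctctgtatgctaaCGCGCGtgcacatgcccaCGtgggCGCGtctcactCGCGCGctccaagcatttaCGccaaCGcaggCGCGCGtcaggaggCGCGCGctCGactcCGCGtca
The Gria2 stretch holds 19 CpG dinucleotides at 64.8% G and C, that of Gria4 holds 16 at 58.8%, and that of Grin1 holds 27 at 58.8%. In Gria4 most of the CpG dinucleotides lie in the stretch next to the start site, and in Grin1 they are spread over more of the window. RefSeq had 26 promoters for 22 of the 34 genes, each running from 250 bases before to 50 after a start site. The GC box letters GGGCGG, searched on both strands, were in 15 of these 26 and in 35.7% of all 32851 mouse promoters of that length. TATAAA was in 1 of the 26, against 13.6% of all, and TGACGTCA in 0 of the 26, against 1.8% of all.

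The libraries were of similar depth, with 21990624 to 25735149 counts each and 24674 to 26194 genes with at least 1 count. Several libraries stood apart in markers of neighbouring tissue. A marker score here is the mean log2 CPM (counts per 1000000 of a library) of a fixed list. The striatum score was 5.59, 6.92 and 6.07 in melanoma replicates 1, 3 and 5 and 5.79 in melanoma plus ICI replicate 3, against at most 4.07 in the other 16 libraries. Melanoma plus ICI replicate 3 also had the lowest field CA1 score, 4.81 against 5.74 to 6.51 elsewhere. Choroid plexus markers ranged from 0.213 to 6.79, whereas neuron markers stayed between 8.86 and 9.24 and astrocyte markers between 7.43 and 7.64. Control replicate 4 and melanoma plus ICI replicate 1 had stood apart on the first principal component in an earlier look at these data. They had the highest shares of mitochondrial counts, 5.099% and 4.276%, against 3.077% to 3.785% elsewhere. This share was 3.077% to 3.5% in ICI and 3.221% to 4.276% in melanoma plus ICI, and its part in the gene levels was not tested. The labels name no batch.

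Levels of different genes are compared per kilobase of the deposited gene length. That length joins all annotated exons, so a gene with long alternative ends is divided by more sequence than most of its transcripts hold. On this scale Cnih2 came first with a mean over the 20 libraries of 178 CPM per kilobase, followed by Gria1 at 157, Cacng8 at 65.4, Cacng7 at 63.8, Grik5 at 57.9, Grin1 at 51.7 and Gria2 at 49.8. The lowest were Grin3b at 0.1003 and Grm8 at 1.10.

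**Figure D1:**
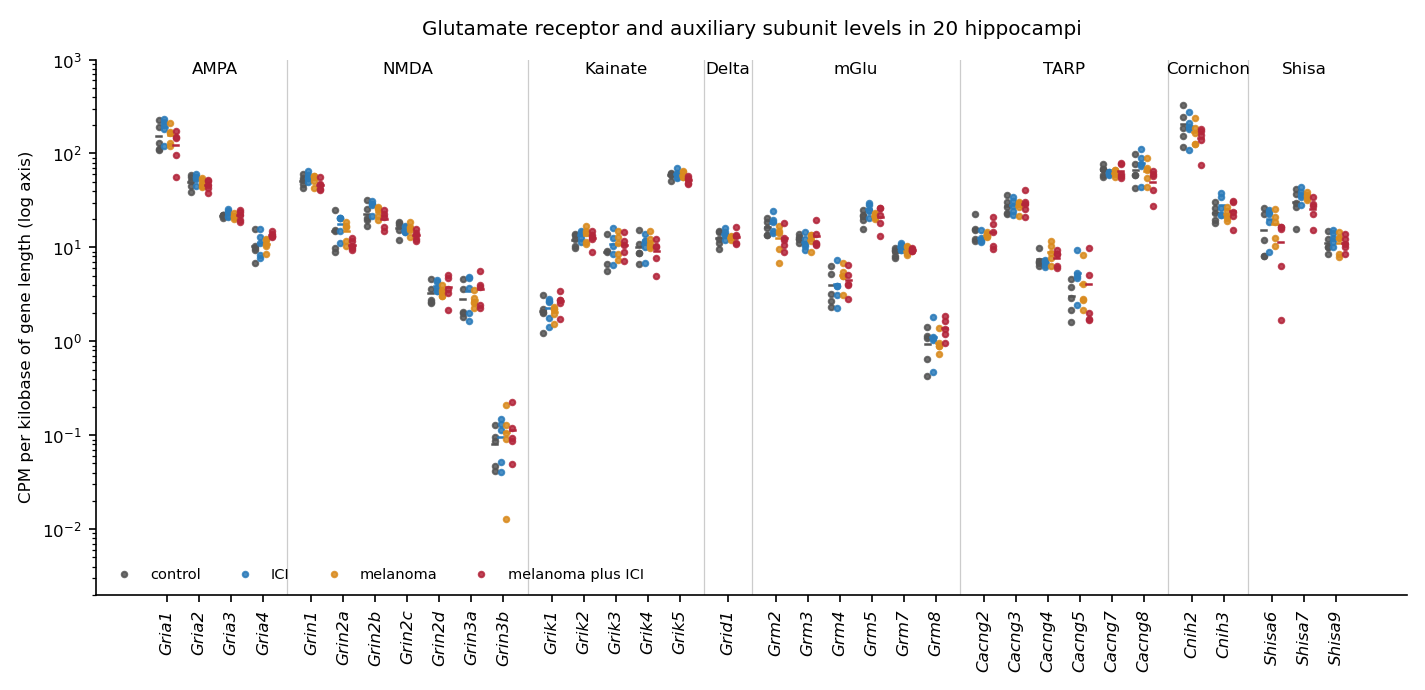
Level of each gene in CPM per kilobase of gene length (log axis), 1 point per library, with a short bar for the mean of each group of 5, genes ordered by receptor family. Cnih2 and Gria1 lie at the top, Grin3b and Grm8 at the bottom, and the 4 groups overlap in nearly every gene.

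Among AMPA receptor subunits, the order Gria1, Gria2, Gria3, Gria4 held in all 20 libraries on the per-kilobase scale. Gria1, which encodes GluA1 and lies on chromosome 11 from 57011387 to 57330244 in the deposited tables, made up a mean of 63.8% of the summed AMPA level, with a range of 42.6% to 72.8%. Gria2, whose edited product GluA2 keeps calcium out of the channel, made up 21.3% (17.3% to 29.7%). Gria3 and Gria4 made up 9.65% and 5.19%. These shares rest on deposited lengths, which were 6043 bases for Gria1 and 15548 for Gria2. In CPM the means of Gria1 and Gria2 were 946 and 774.

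Gria1 was at 667, 1370, 1162, 650 and 788 CPM in control replicates 1 to 5 and at 1096, 1214, 1417, 1292 and 732 in the ICI group. It was at 1034, 987, 733, 1271 and 776 CPM in the melanoma group and at 576, 1039, 339, 900 and 876 in the melanoma plus ICI group. The lowest library was melanoma plus ICI replicate 3, the one with the lowest CA1 score, and the groups overlapped. Gria2 was steadier, between 588 and 945 CPM over all libraries, with group means of 776 ± 125 (SD, n = 5) for control, 847 ± 89.3 for ICI alone, 754 ± 74.9 for melanoma and 717 ± 90.1 for melanoma plus ICI. Gria3 encodes GluA3 and lies on the X chromosome. Of the listed genes with a mean of at least 1 CPM it varied least, from 184 to 256 CPM, a 1.39-fold range.

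Gria4 encodes GluA4, a subunit with fast kinetics that many interneurons use. It was at 99.1, 42.5, 58.6, 65.8 and 62.4 CPM in control and at 81.0, 69.7, 52.2, 48.4 and 98.5 CPM in ICI. It was at 64.6, 68.6, 75.2, 53.5 and 77.7 CPM in melanoma and at 83.9, 82.1, 87.5, 82.6 and 93.6 CPM in melanoma plus ICI. All 5 melanoma plus ICI libraries lay above all 5 melanoma libraries, the only such separation of any tested gene of the list in the 5 comparisons of group pairs tested. Over all 18427 tested genes, 1.54% were separated in this comparison and 0.635% in that direction. The shares separated in the other 4, with 0 genes of the list each, were 0.885% for ICI against control, 1.04% for melanoma against control, 0.304% for melanoma plus ICI against control and 1.45% for melanoma plus ICI against ICI. The difference did not pass the test (log2 fold change of 0.34, edgeR adjusted p = 0.825).

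Among NMDA receptor subunits, Grin1 encodes the obligatory GluN1. It was at 455, 580, 505, 414 and 532 CPM in control, at 529, 528, 637, 573 and 477 in ICI, at 556, 564, 416, 540 and 491 in melanoma and at 402, 442, 542, 395 and 458 in melanoma plus ICI. The ranges of all 4 groups overlapped. A gene on the opposite strand, Grin1os, holds 9.60% as many counts as Grin1, and since strand use is not stated, reads of this pair may not be fully separated.

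Of the GluN2 subunits, which set how long the channel stays open, Grin2b made up 41.4% of the summed per-kilobase level, Grin2c 27.2%, Grin2a 24.9% and Grin2d 6.45%. Grin2b was first and Grin2d last in all 20 libraries, while Grin2c lay above Grin2a in 13 of 20. That order rests on gene length, 17933 bases for Grin2a and 5037 for Grin2c. In CPM, Grin2a was the higher in every library, at 159 to 452 against 58.3 to 94.5 for Grin2c. Grin2a, whose product GluN2A gives fast NMDA currents and takes over during maturation, was at 159, 452, 270, 177 and 272 CPM in control and at 271, 369, 372, 369 and 202 in ICI. It was at 337, 306, 186, 298 and 212 CPM in melanoma and at 167, 208, 174, 185 and 223 in melanoma plus ICI. The melanoma plus ICI values were the most uniform, 191 ± 23.5 CPM against 316 ± 77.3 in ICI, and of the ICI values only that of replicate 5 lay within their range.

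Grin2b, which encodes the slower GluN2B, was at 488, 785, 639, 421 and 506 CPM in control, at 721, 781, 716, 702 and 540 in ICI, at 647, 630, 487, 672 and 536 in melanoma and at 369, 614, 410, 526 and 568 in melanoma plus ICI. ICI replicate 5 was again the low member of its group. Grin2c, a GluN2 gene known from cerebellum and astrocytes, had group means of 81.7 ± 13.4 CPM for control, 77.9 ± 5.11 for ICI alone, 79.9 ± 10.8 for melanoma and 67.8 ± 7.88 for melanoma plus ICI. Grin2d averaged 23.7 CPM, and Gm45441, a gene on its opposite strand, holds 25.9% as many counts. Grin3a, whose product GluN3A lowers calcium entry, ranged from 20.3 to 68.6 CPM. Grin3b was at 0.0424 to 0.735 CPM and lies opposite the far more abundant Tmem259, so it was not read further.

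The kainate subunits were led by Grik5, which encodes the high-affinity subunit GluK5 and made up 61.8% of the summed per-kilobase kainate level (56.1% to 69.8%). Grik2 made up 13.7%, Grik3 and Grik4 11.0% each and Grik1 2.44%. Grik4, which encodes GluK4 and is known from CA3, lay above Grik3 in 10 of 20 libraries, so these neighbours had no fixed order. Grik5 was also among the steadiest genes, ranging from 244 to 365 CPM. Grid1, the delta receptor gene whose product binds synaptic organisers rather than passing current in response to glutamate, ranged over 1.73-fold around a mean of 79.6 CPM.

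Among the metabotropic receptors, Grm5, a group I receptor gene coupled to calcium release, had the highest mean, 22.3 CPM per kilobase. Its group means were 212 ± 34.7 CPM for control, 261 ± 36.6 for ICI alone, 222 ± 11.7 for melanoma and 217 ± 56.9 for melanoma plus ICI, with overlapping ranges. Of the group II and III genes, whose products mostly dampen release, Grm2 made up 35.0% of the summed per-kilobase level, Grm3 29.4%, Grm7 22.7%, Grm4 10.3% and Grm8 2.63%. Grm2 encodes an autoreceptor known from the mossy fibres of dentate granule cells, and it ranged from 33.5 to 118 CPM. Grm7 was steady, from 45.3 to 65.4 CPM, and Grm8 was not, from 4.25 to 18.2 CPM. Gm20387, on the opposite strand, holds 3.12% as many counts as Grm7.

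The auxiliary subunits held the most abundant gene per kilobase, Cnih2, and the most variable tested genes, Shisa6 and Cacng5. In CPM the highest mean was that of Gria1, at 946, against 221 for Cnih2. Among TARPs, which bind AMPA receptors and anchor them at the synapse, Cacng8 and Cacng7 were level on average, at 35.2% and 35.1% of the summed per-kilobase level. Cacng8, known as the hippocampal TARP, was the higher of the pair in 12 of 20 libraries. Cacng8 was at 100, 230, 181, 137 and 139 CPM in control and at 173, 182, 261, 210 and 103.7 in ICI. It was at 158, 162, 102.3, 212 and 127 CPM in melanoma and at 95.5, 151, 64.3, 135 and 142 in melanoma plus ICI. Its share of the TARP level ran from 15.7% to 48.5%, and that of Cacng7 only from 27.7% to 44.9%. Cacng3 made up 15.5%, Cacng2, which encodes stargazin, 7.70%, Cacng4 4.29% and Cacng5 2.24%. A730060N03Rik, on the opposite strand, holds 7.10% as many counts as Cacng2.

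Cacng5 encodes a TARP that has weak effects on AMPA receptors, and it ranged 6.14-fold, from 6.15 to 37.8 CPM. Its high libraries were replicate 4 in the ICI, melanoma and melanoma plus ICI groups, at 35.5, 31.98 and 37.8 CPM. The labels give replicate numbers no meaning across groups.

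Cnih2 and Cnih3 encode cornichons, which slow the closing of AMPA receptors. Cnih2 made up 86.9% of their summed level and was at 144, 302, 232, 404 and 188 CPM in control, at 223, 238, 344, 264 and 134 in ICI, at 206, 228, 154, 297 and 156 in melanoma and at 227, 193, 92.1, 170 and 217 in melanoma plus ICI. The highest value was in control replicate 4 and the lowest in melanoma plus ICI replicate 3. Yif1a, on the opposite strand, holds 4.42% as many counts as Cnih2.

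The Shisa genes encode single-pass membrane proteins found with AMPA receptors. Shisa7, whose product also binds GABA-A receptors, made up 53.7% of their summed level, Shisa6 25.8% and Shisa9 20.5%. Shisa6 had the widest range of the 33 tested genes, 15.4-fold. It was at 60.9, 194, 170, 60.5 and 89.5 CPM in control, at 140, 168, 186, 179 and 66.5 in ICI, at 139, 156, 76.7, 189 and 92.6 in melanoma and at 47.4, 123, 12.6, 123 and 117 in melanoma plus ICI. Low libraries occurred in each group.

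Whether checkpoint inhibition altered these genes in mice without tumours was asked by comparing the ICI group with the control group. None of the 33 tested genes passed the threshold (edgeR's quasi-likelihood test, Benjamini-Hochberg adjusted p under 0.05). Over all tested genes the share that passed was 0% as well, here and in the other 5 comparisons. At an unadjusted p under 0.05, 1 of 33 was called, against 5.23% of all genes. This was Grm7, which encodes a presynaptic group III receptor and was at 58.6, 54.02, 55.0, 45.3 and 47.8 CPM in control and at 61.6, 65.4, 55.6, 55.2 and 62.2 in ICI. Its log2 fold change was 0.20 (SE 0.082, edgeR adjusted p = 0.767), and the groups overlapped. The count was 0 without control replicate 4, control 5 or ICI 2, 2 without control 1, ICI 3, ICI 5 or melanoma plus ICI 3, and 4 without control 2. The share of all genes was 9.47% without control 2 and ran from 3.23% to 6.80% without each of the other libraries. Grm5 was next, with a log2 fold change of 0.30 (SE 0.16, edgeR adjusted p = 0.767). The median log2 fold change of the 33 genes was 0.16, with 27 above 0, beside a median of −0.01 and 48.0% above 0 over all genes. Without control replicate 4 that median was 0.101 with 26 above 0, and with 4 tissue scores (dentate gyrus, striatum, choroid plexus and neocortex) as covariates 0.106 with 23 above 0. In bulk tissue, fewer cells of a type and less RNA per cell cannot be told apart.

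Markers of the dentate gyrus, CA1 and neocortex leaned to one side beside these values. In ICI against control, 9 of 9 dentate gyrus markers and 7 of 8 CA1 markers had a log2 fold change above 0, and 8 of 9 neocortex markers had one below 0. None of 8 choroid plexus markers (median −1.20) and none of 7 oligodendrocyte markers (median −0.29) was above 0. In each of these lists 0 markers had an unadjusted p under 0.05, against 5.23% of all genes. The mean dentate gyrus score was 5.42 in ICI (4.38 to 6.17) and 5.17 in control (3.97 to 6.19). Their part in the receptor values was not tested in this comparison beyond the fit with tissue scores as covariates. That fit left the count at 1, beside 5.42% of all genes.

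Melanoma was compared with control, both under isotype antibody, for the effect of the tumour. No gene passed the adjusted threshold, and 0 of 33 had an unadjusted p under 0.05 in edgeR, against 5.11% of all genes. DESeq2 gave 0, beside 3.53% of all genes, and limma voom 1, beside 6.97%. The smallest p-values were those of Grm2 and Cacng4. Grm2 was at 33.5 to 83.0 CPM in melanoma and 65.8 to 99.3 in control, a log2 fold change of −0.38 (SE 0.23, edgeR adjusted p = 0.877). Cacng4 was at 31.1, 22.8, 41.4, 27.7 and 37.2 CPM in melanoma and at 24.6, 24.8, 22.8, 35.6 and 25.7 in control, a log2 fold change of 0.26 (SE 0.16, edgeR adjusted p = 0.877). The 3 highest melanoma values of Cacng4 were those of replicates 1, 3 and 5, the libraries high in striatum markers. Without the libraries high in these markers, which left only replicates 2 and 4 in the melanoma group, its log2 fold change was −0.087. With 4 tissue scores as covariates it was −0.071, so its direction did not hold. All 10 striatum markers had a log2 fold change above 0 in this comparison, with a median of 1.97. Of the dentate gyrus markers, 2 of 9 were above 0 (median −0.52, 2 lower at an unadjusted p under 0.05), and of the choroid plexus markers 0 of 8 (median −1.43). The median over the 33 receptor genes was 0.02, with 20 above 0, beside 48.0% above 0 over all genes. Its sign did not hold: it was −0.020 with 14 above 0 without control replicate 4, −0.007 without control replicate 5, −0.014 with the tissue scores as covariates and −0.013 without the libraries high in striatum markers.

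Melanoma plus ICI was compared with control for both factors together. No gene passed the adjusted threshold, and 1 of 33, Grin2c, had an unadjusted p under 0.05, against 2.38% of all genes. Grin2c was at 58.3, 62.4, 78.1, 68.0 and 72.5 CPM in melanoma plus ICI and at 76.2, 86.5, 90.4, 60.98 and 94.5 in control, a log2 fold change of −0.27 (SE 0.11, edgeR adjusted p = 1.00). Most control values lay higher, though control replicate 4 lay near the low end. The count was 0 without control replicate 2, control 3 or melanoma plus ICI 2, 2 without ICI 4, 3 without control 4, ICI 5 or melanoma plus ICI 5, and 6 without control 1. The share of all genes was 5.19% without control 1 and 5.85% without control 4, and was at most 3.97% without each of the other libraries. Gria4 came next, with a log2 fold change of 0.39 (SE 0.19, edgeR adjusted p = 1.00). In this comparison 0 of 9 dentate gyrus markers were above 0 (median −0.59) and 9 of 10 striatum markers were (median 0.77), and with the tissue scores as covariates the count was 1, beside 1.94% of all genes.

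Melanoma plus ICI was also compared with melanoma for the effect of the inhibitors in tumour-bearing mice. Again no gene passed, and 1 of 33, Grik5, had an unadjusted p under 0.05, against 5.50% of all genes. Grik5 was at 244, 284, 279, 252 and 299 CPM in melanoma plus ICI and at 326, 300, 293, 333 and 287 in melanoma, a log2 fold change of −0.18 (SE 0.083, edgeR adjusted p = 0.825). Only melanoma plus ICI replicate 5 reached into the melanoma range. Shisa7 had a log2 fold change of −0.44 (SE 0.21, edgeR adjusted p = 0.825). Beside these values, 0 of 10 striatum markers were above 0 (median log2 fold change of −1.11, 5 with an unadjusted p under 0.05), 8 of 8 choroid plexus markers were above 0 (median 1.37) and 0 of 7 oligodendrocyte markers were (median −0.36). Above 0 were also 2 of 8 CA1 markers (median −0.36), 3 of 9 dentate gyrus markers (median −0.47) and 7 of 9 neocortex markers (median 0.28). In these 3 lists 1, 1 and 0 markers had such a p. With the tissue scores as covariates, 3 of 33 receptor genes had an unadjusted p under 0.05, beside 6.13% of all genes. Without melanoma plus ICI replicate 1 and control replicate 4, 0 of 33 had one, beside 7.11% of all genes. With the fit confined to the 2 groups 6 of 33 had one, beside 7.30%. Leaving out 1 library at a time gave 0 to 4, while the share of all genes ran from 3.91% to 9.15%. The count was 4 without melanoma replicate 3, beside 5.46% of all genes, and without melanoma plus ICI replicate 3, beside 9.15%. Leaving out 1 library moved the count for 18 of the 20 libraries.

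The most receptor genes at an unadjusted p under 0.05 were found between melanoma plus ICI and ICI, which asks for the effect of the tumour under checkpoint inhibition. They numbered 8 of 33, all lower in melanoma plus ICI, against 4.51% of all genes lower and 8.63% in either direction. They were the NMDA subunit genes Grin1, Grin2a and Grin2b, the AMPA subunit gene Gria1, the kainate subunit gene Grik5, the mGlu2 gene Grm2 and the auxiliary subunit genes Cacng8 and Shisa7. None passed the adjusted threshold. Grin2a had a log2 fold change of −0.73 (SE 0.24, edgeR adjusted p = 0.563) and Grin2b one of −0.48 (SE 0.17, edgeR adjusted p = 0.563). Over the 33 genes the median log2 fold change was −0.19 with 10 above 0, beside 0.02 and 55.0% above 0 over all genes. The median was −0.099 without ICI replicate 1, −0.113 without melanoma plus ICI replicate 1, −0.101 with the tissue scores as covariates and −0.061 in limma voom. ICI takes part in both this comparison and that with control, so the values of each are given on their own.

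**Figure D2:**
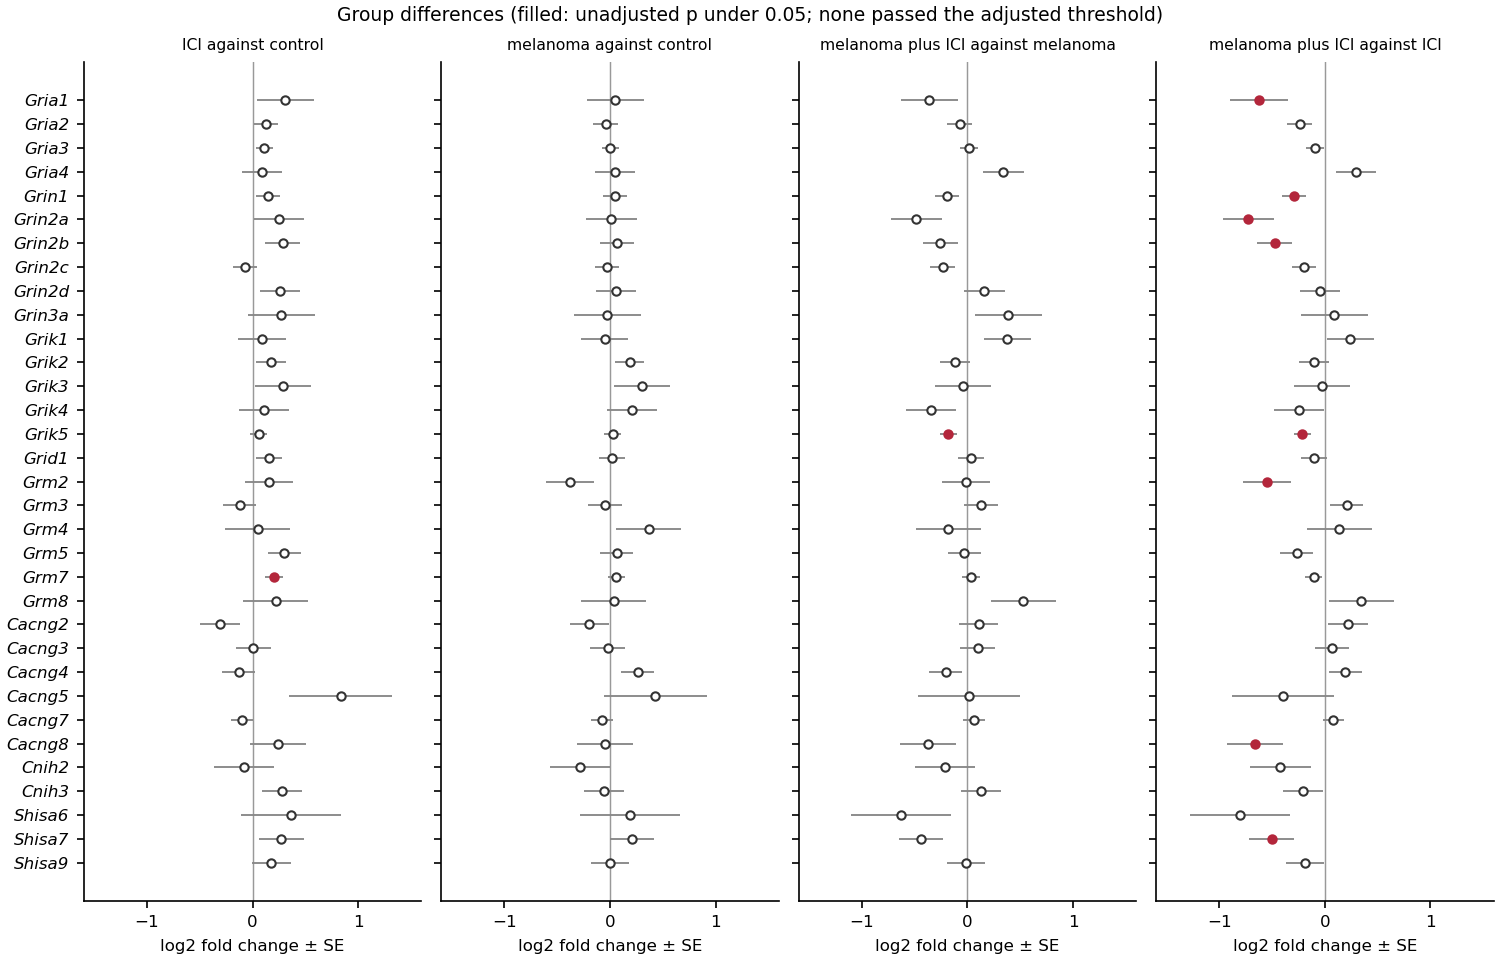
Log2 fold change (point) with its standard error (bar) for the 33 tested genes in 4 comparisons of groups with 5 libraries each; filled red points have an unadjusted p under 0.05, and no gene passed the adjusted threshold. In melanoma plus ICI against ICI, 8 filled points lie left of 0; the other panels hold 1, 0 and 1.

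Field markers moved beside these 8 genes. In the same comparison, 0 of 9 dentate gyrus markers were above 0 (median log2 fold change of −0.91, 5 with an unadjusted p under 0.05), 1 of 8 CA1 markers was (median −0.64), and 8 of 9 neocortex markers were (median 0.38). Above 0 were also 8 of 8 choroid plexus markers (median 1.34), 9 of 10 striatum markers (median 0.81), 7 of 7 oligodendrocyte markers (median 0.15) and 8 of 8 interneuron markers (median 0.15). The dentate gyrus score was 3.46 to 4.86 in melanoma plus ICI and 4.38 to 6.17 in ICI. The CA1 score was 4.81 to 6.29 against 6.21 to 6.41, and the neocortex score 4.18 to 5.34 against 3.65 to 4.54. With the dentate gyrus, striatum, choroid plexus and neocortex scores as covariates, 1 of 33 receptor genes had an unadjusted p under 0.05, beside 3.96% of all genes. That was Grm4, at a log2 fold change of −0.56 with the covariates and of 0.14 without them, so its direction did not hold. With the covariates Grin2a stood at −0.25, Gria1 at −0.05 and Cacng8 at 0.001, which are 3 of the 8 genes. Of all 33 genes, 9 were above 0 with the covariates and 10 without them, so most still leaned lower. Without ICI replicate 3 the count was 3 of 33, beside 4.83% of all genes, and without melanoma plus ICI replicate 3 it was 5, beside 7.93%. Of 7 neuron markers 4 were above 0, with a median of 0.04.

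The interaction asks whether the ICI effect differed between tumour-bearing and tumour-free mice. No gene passed, and 4 of 33 had an unadjusted p under 0.05, all negative, against 4.28% of all genes negative and 10.3% in either direction. They were Shisa7, with −0.71 on the log2 scale (SE 0.30, edgeR adjusted p = 0.484), Grin2b, with −0.54 (SE 0.23, edgeR adjusted p = 0.484), Grin2a and Grin1. Beside them, 8 of 8 choroid plexus markers (median 2.62, 2 with an unadjusted p under 0.05) and 7 of 9 neocortex markers (median 0.62, 3 with such a p) were above 0. Above 0 were 0 of 10 striatum markers (median −1.23), 1 of 8 CA1 markers (median −0.59) and 3 of 9 dentate gyrus markers (median −0.67). The count depended on single libraries. It was 0 without control replicate 1 or melanoma plus ICI replicate 1, and 1 without control 4, ICI 3, melanoma 1, melanoma 4 or melanoma plus ICI 3. It was 2 without control 5, ICI 2, ICI 4 or melanoma 2, and 7 without ICI 5. The share of all genes was 9.16% without control 1, 7.46% without melanoma plus ICI 1 and 12.0% without ICI 5, and ran from 7.11% to 15.6% over the 20 libraries left out in turn. Without control replicate 4 and melanoma plus ICI replicate 1 together the count was 0, beside 7.99% of all genes, and with the tissue scores as covariates it was 1, beside 7.05%.

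Other genes of the pathway were counted in the same way. Of 22 postsynaptic scaffold genes, 0 passed the adjusted threshold in any comparison, and 8 had an unadjusted p under 0.05 in melanoma plus ICI against ICI, all lower, against 4.51% of all genes lower. In the interaction 6 of the 22 did, all negative, against 4.28% of all genes negative. Among the 8 were Dlg4, which encodes PSD-95, with a log2 fold change of −0.24, Camk2a with −0.48, Camk2b with −0.62 and Shank3 with −0.38. Of 25 other auxiliary and assembly genes, 3 had an unadjusted p under 0.05 in melanoma plus ICI against ICI, against 8.63% of all genes in either direction, and all were lower: C1ql2, C1ql3 and Cpt1c, with log2 fold changes of −1.13, −0.37 and −0.22. C1ql2 and C1ql3 are made by dentate granule cells, among others. Of 12 genes for glutamate transport and metabolism, 1 was called, the neuronal transporter gene Slc1a1 with −0.26, which is about the share of 8.63% over all genes. Of 3 further glutamate receptor genes, 2 were tested and 0 called.

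How far each receptor gene followed the tissue make-up of the library was then described over libraries. For each of the 33 genes and 5 scores, the log2 CPM of the gene was correlated with the score, which gave 165 pairs with a 2-sided permutation test of 100000 resamples and Benjamini-Hochberg adjustment over the 165; 1e-05 is the smallest unadjusted p these resamples can give. All relations had been planned over all 20 libraries. The CA1 relations used 19 libraries and the striatum relations 16, without the libraries that stood apart on those scores. In the 16 kept, the striatum score ran only from 3.44 to 4.07, so these relations do not cover the libraries high in striatum markers. Of the 165 pairs, 62 passed an adjusted p of 0.05, 36 positive and 26 negative. Of these 62, all kept their sign without the 2 libraries farthest from the median score and 37 also passed there, and 41 passed with group means removed. The 5 scores share genes' libraries and depth and were not independent: the dentate gyrus score had r = 0.669 with the CA3 score and −0.651 with the neocortex score, both with an adjusted permutation p of 0.0102.

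**Figure D3:**
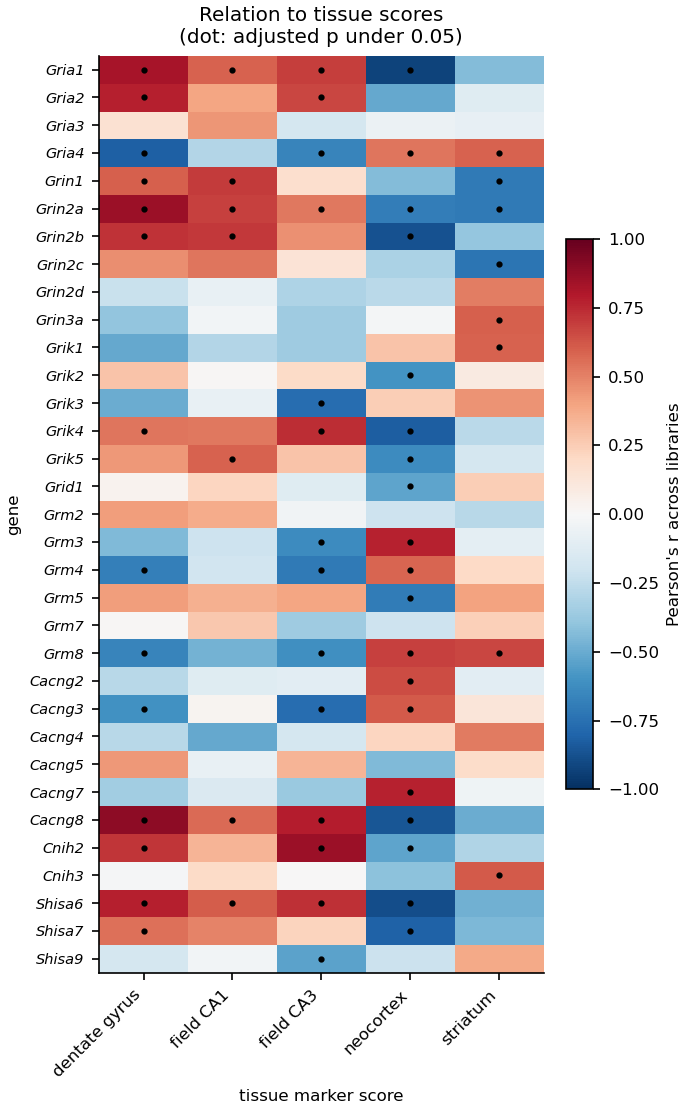
Pearson's r across libraries between the log2 CPM of each of 33 genes (vertical axis) and 5 tissue marker scores (horizontal axis), red for positive and blue for negative; a dot marks an adjusted permutation p under 0.05. Dots number 14 for dentate gyrus, 7 for CA1, 14 for CA3, 19 for neocortex and 8 for striatum.

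The neocortex score had the most relations, 19 of 33 genes, 12 negative and 7 positive. Gria1 was the most negative, with r = −0.922 (rho = −0.919, n = 20, adjusted permutation p = 0.000206), −0.867 without the 2 farthest libraries and −0.906 with group means removed. Shisa6 followed with r = −0.888 (rho = −0.911, adjusted permutation p = 0.000206), −0.825 and −0.872. Cacng7 had r = 0.770 (rho = 0.702, adjusted permutation p = 0.00101) and Grm3, an mGlu3 gene known from astrocytes and cortical neurons, r = 0.767 (rho = 0.779, adjusted permutation p = 0.000971). Without the 2 farthest libraries these were 0.594 and 0.613. Thus Gria1 and Shisa6 were low in libraries rich in neocortex markers, and Cacng7 and Grm3 were high there.

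**Figure D4:**
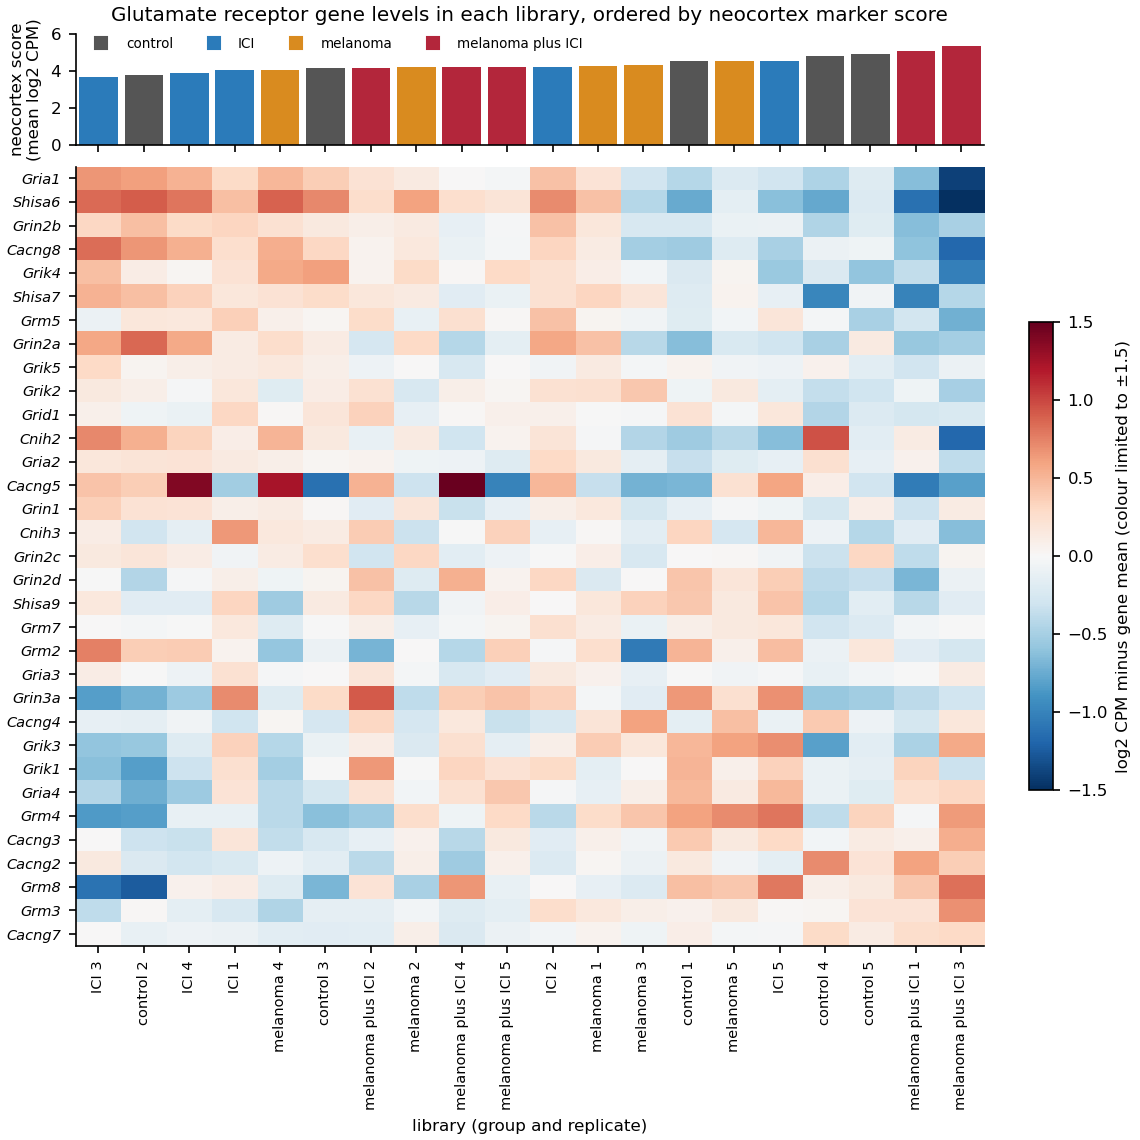
Level of each of 33 genes (rows) in each library (columns) as log2 CPM minus the gene's mean, red above and blue below, with columns ordered by neocortex score (bars on top, mean log2 CPM, coloured by group) and genes by their r with it. Gria1 and Shisa6 at the top pass from red to blue from left to right and Grm3 and Cacng7 at the bottom the opposite way, and the 2 highest bars are melanoma plus ICI replicates 3 and 1, at 5.34 and 5.09, while the lowest is ICI replicate 3, at 3.65.

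With the dentate gyrus score, 10 genes were positively and 4 negatively related. Cacng8 had r = 0.894 (rho = 0.832, n = 20, adjusted permutation p = 0.000206) and Grin2a r = 0.859 (rho = 0.845, adjusted permutation p = 0.000206), and both held without the 2 farthest libraries, at 0.839 and 0.837. In the other direction Gria4 had r = −0.820 (rho = −0.851, adjusted permutation p = 0.00033) and Grm4, which encodes a presynaptic group III receptor, r = −0.680 (rho = −0.636, adjusted permutation p = 0.00519). Without the 2 farthest libraries they were at −0.802 and −0.579. AMPA subunits therefore split, since Gria1 (0.827) and Gria2 (0.774) were positively related to the same score and Gria4 negatively. Grin1, whose promoter is shown above, had r = 0.595 (adjusted permutation p = 0.0217), which did not pass with group means removed (r = 0.468, adjusted permutation p = 0.158).

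With the CA3 score, 7 genes were positively and 7 negatively related. Cnih2 had r = 0.856 (rho = 0.910, n = 20, adjusted permutation p = 0.000206) and Cacng8 r = 0.786 (rho = 0.693, adjusted permutation p = 0.000635). Cacng3 had r = −0.763 (rho = −0.629, adjusted permutation p = 0.000825) and Grik3 r = −0.761 (rho = −0.851, adjusted permutation p = 0.00077). Without the 2 farthest libraries the 4 values were 0.756, 0.660, −0.629 and −0.690. Of the kainate genes with no fixed order of level, Grik3 was thus lower in libraries with a higher CA3 score. Grik4 had r = 0.739 (rho = 0.608, adjusted permutation p = 0.00174), but without those libraries 0.481, which did not pass (adjusted permutation p = 0.109).

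Relations with the CA1 score over 19 libraries were fewer, 7 of 33 and all positive. Of these 7, 3 also passed without the 2 farthest libraries and only 1 with group means removed. Grin2b had r = 0.71 (rho = 0.691, adjusted permutation p = 0.00436), and 0.679 without the 2 farthest libraries. Grin1 had r = 0.702 (rho = 0.589, adjusted permutation p = 0.00533), but 0.564 without the 2 farthest libraries (adjusted permutation p = 0.0662), which no longer passed. Neither passed with group means removed, with adjusted permutation p-values of 0.0636 and 0.0808. The most negative, Cacng4 (r = −0.512, adjusted permutation p = 0.0627) and Grm8 (r = −0.476, adjusted permutation p = 0.0899), did not pass. Cacng4 did pass without the 2 farthest libraries (r = −0.666, adjusted permutation p = 0.0271), and Grm8 with group means removed (r = −0.512, adjusted permutation p = 0.0472).

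With the striatum score over 16 libraries, 5 genes were positively and 3 negatively related. Of these 8, 6 also passed without the 2 farthest libraries and 3 with group means removed. Grin2c had r = −0.734 (rho = −0.750, adjusted permutation p = 0.00797) and Grin2a r = −0.708 (rho = −0.768, adjusted permutation p = 0.0126). Without the 2 farthest libraries these were −0.663 and −0.629, and the second no longer passed (adjusted permutation p = 0.0569). Grm8 had r = 0.668 (rho = 0.688, adjusted permutation p = 0.0177) and Cnih3 r = 0.615 (rho = 0.571, adjusted permutation p = 0.0377). Both passed without the 2 farthest libraries, at 0.649 (adjusted permutation p = 0.0452) and 0.847 (adjusted permutation p = 0.00354). Neither passed with group means removed, with adjusted permutation p-values of 0.108 and 0.0985. Over all 20 libraries Cnih3 had r = −0.284.

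**Figure D5:**
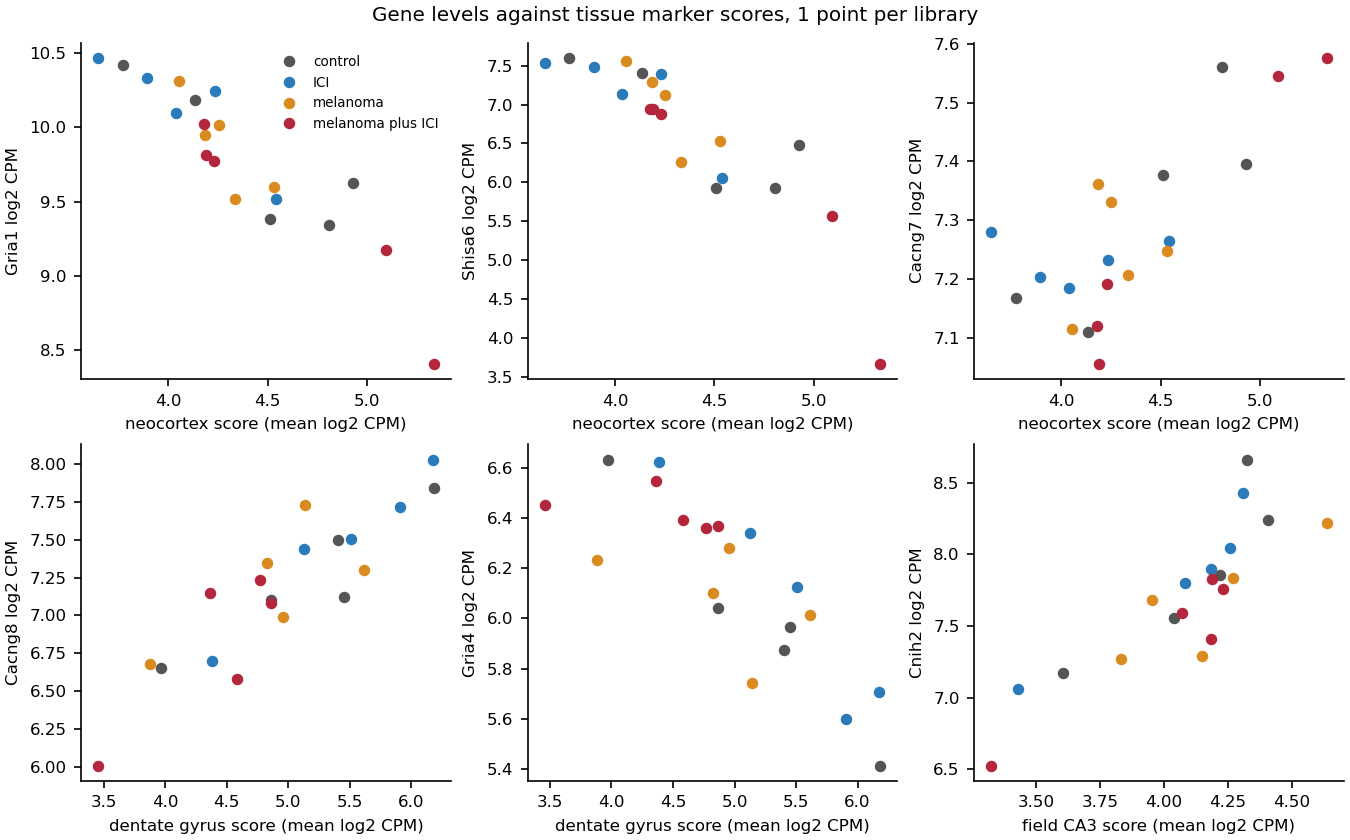
Log2 CPM of 6 genes against a tissue marker score (mean log2 CPM of the list), 1 point per library, coloured by group. Gria1 and Shisa6 descend and Cacng7 ascends with the neocortex score (r = −0.922, −0.888 and 0.770), Cacng8 ascends and Gria4 descends with the dentate gyrus score (0.894 and −0.820), and Cnih2 ascends with the CA3 score (0.856).

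How much a gene varied did not by itself set whether it passed with a score. Among the 3 most variable of the 33 tested genes, Shisa6 (SD of 0.948 on the log2 scale) was related to the dentate gyrus, CA1, CA3 and neocortex scores, and Grm8 (SD of 0.560) to the dentate gyrus, CA3, neocortex and striatum scores. Cacng5, with an SD of 0.810, passed with none of the 5, and neither did Grm2. Of the 3 steadiest tested genes, Gria3 (SD of 0.119) and Grm7 (SD of 0.137) passed with none, and Grik5 (SD of 0.138) passed with the CA1 and neocortex scores.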

How the data were processed

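Raw counts per gene were deposited by the authors for 20 hippocampal libraries, 1 table each, in a layout with coordinates, strand and length per gene, per the file headers. The submitters' processing notes name STAR 2.5.2b and DESeq2 1.16.1 without their roles. The counting program, strand use, annotation and genome build are not given in the sources used here. Of the 49671 identifiers, 49412 occur in GENCODE M21 (GRCm38), which supplied symbols, and 45214 have the same start and end, among them 29 of the 34 genes described. The 345 identifiers without a symbol hold 0.0702% of the counts.

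Groups came from the titles. The counts were fitted with edgeR 4.0.16 in R 4.3.3 (filterByExpr at a minimum count of 10 and a minimum total of 15, TMM factors of 0.9555 to 1.0432, robust quasi-likelihood, 1 mean per group, all 20 libraries), over 18427 genes, with Benjamini-Hochberg adjustment within each of 6 contrasts at 0.05. CPM is per 1000000 counts of the TMM-scaled library; log2 CPM used a prior count of 2. The 34 genes were all to be named by role, with statistics for the 2 smallest p-values per contrast, the 2 most positive and 2 most negative r per score, and the 3 largest and 3 smallest SDs. The genes, the lists and the tests were chosen with earlier results of these data known. Other genes and values named in the text were picked after they were seen. Scores are means over 9 dentate gyrus, 8 CA1, 8 CA3, 9 neocortex, 10 striatum, 8 choroid plexus, 7 neuron, 8 interneuron, 7 oligodendrocyte and 7 astrocyte markers; libraries beyond a gap of over 40% of a score's range were left out of its relations.

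Alternatives were DESeq2 size factors, DESeq2 1.42.0, limma 3.58.1 voom with quality weights, omission of the filter, fits to the compared groups alone, a replicate block, 4 tissue scores as covariates, and leaving out libraries. On simulated counts for ICI against control over 18427 genes, the test recovered 60% of 2-fold and 27% of 1.5-fold changes with 5 false calls. As a check for repeat deposits of one library, pairs within a group were compared. They differed by a chi-square of 10.48 to 120.24 per gene, and no pair was merged.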

Additional observations from a re-analysis of the deposited data

Results flagged for a closer look

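Within groups of 5 libraries, the levels of the 34 genes and the 5 scores used in the relations were examined for a library apart from the rest, and 6 of 156 groups had one, where chance gives about 1 in 20. Grik5 was at 266 CPM in control replicate 5, below 307 to 317 in the other 4 control libraries. Cacng2 was at 84.0 CPM in ICI replicate 3, above 62.6 to 68.6. Cacng4 was at 35.6 CPM in control replicate 4, above 22.8 to 25.7. The CA3 score was 3.43 in ICI replicate 5, below 4.08 to 4.31, and 3.32 in melanoma plus ICI replicate 3, below 4.07 to 4.23. In the latter library the striatum score was 5.79, above 3.68 to 4.07. The parts of tissue make-up and library quality in these values were not tested.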

How the results depend on the processing

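No receptor gene passed the adjusted threshold in any of the 6 contrasts under any of 28 or 29 alternatives each, and the smallest adjusted p over them was 0.231. Counts at an unadjusted p under 0.05 were less stable. Over other fits and left-out sets of libraries they ran from 0 to 2 for ICI against control, 0 to 2 for melanoma against control, 0 to 4 for melanoma plus ICI against control, 0 to 6 against melanoma, 1 to 10 against ICI and 0 to 5 for the interaction. Beside them, the share of all genes ran from 3.5% to 7.27%, 2.76% to 6.97% and 1.48% to 5.37% in the first 3 comparisons. In the last 3 it ran from 3.76% to 14.9%, 3.96% to 11.7% and 6.75% to 12.7%. Leaving out each library in turn gave 0 to 4, 0 to 1, 0 to 6, 0 to 4, 3 to 10 and 0 to 7. The share of all genes then ran from 3.23% to 9.47%, 3.8% to 6.76% and 1.6% to 5.85% in the first 3. In the last 3 it ran from 3.91% to 9.15%, 4.83% to 12.6% and 7.11% to 15.6%. The replicate numbers did not pair the samples: deviations of same-numbered libraries correlated at a median of −0.00 (−0.35 to 0.53 over 30 pairs). With the replicate block, 0 genes passed in each contrast, and the unadjusted counts were 2, 0, 3, 1, 10 and 4. The shares of all genes beside them were 4.98%, 4.89%, 1.87%, 5.27%, 7.98% and 9.38%.

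The log2 fold change of Cacng4 in melanoma against control turned from 0.263 to −0.071 with tissue scores as covariates and to −0.087 without the libraries high in striatum markers. The r of Cnih3 with the striatum score turned from 0.615 to −0.284 over all 20 libraries. Grm4 in melanoma plus ICI against ICI turned from 0.14 to −0.56 with the tissue scores as covariates. The causes were not tested. The number of gene and score pairs that passed, 62, ran from 43 to 66 over its alternatives. The interaction could not be fitted with only 2 groups.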
